A study of Arabidopsis thaliana with 24 samples.

Results

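UDP-glycosyltransferases (UGTs) move a sugar from a UDP-sugar onto small molecules, among them plant hormones, phenylpropanoids, flavonoids, sterols and foreign chemicals. The sugar usually makes the acceptor more soluble and, for many hormones, inactive, so that the compound can be stored or moved to the vacuole. In Arabidopsis they form a large family with many tandem copies, and related members often act on different acceptors. The family described here consists of every gene on the array that the probe annotation names with a symbol of UGT and a digit, on a probe set that lists no other gene, except UGT74B1 and UGT78D1. Of 50 probe sets with such a symbol, 3 list several genes and 2 belong to the excepted genes, which left 45 genes with 1 probe set each, out of 12432 named genes. All 45 reached an intensity of at least 40 on at least 1 array, the minimum used for the whole array.

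Gene expression was measured in shoots on ATH1 arrays, with 24 arrays in all. WT was the unmutagenized line that carries the pASN1-HPT2 transgene, and *sdg8-5*, formerly *cli186*, is a fast-neutron mutant of that line, so both genotypes hold the transgene. The mutant lacks the whole of SDG8, which encodes a histone H3K36 methyltransferase, together with some of its neighbor AT1G77310, and it stands for 1 allele. Plants were grown hydroponically for 3 weeks and kept for 24 h without sucrose in darkness. The treatment lasted 2 h and combined the presence or absence of 1% sucrose (C) with light at 70 µE or darkness (L). The 8 combinations, from WT -C-L to *sdg8-5* +C+L, each have 3 biological replicates. Values are MAS5 intensities, a linear measure of probe brightness that was already scaled between arrays. Changes were estimated on the log2 scale with limma over all probe sets, and a change was called at a false discovery rate (FDR) below 0.05. Errors of log2 changes are standard errors. Intensities are not compared between genes, because each probe set has its own response.

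Facts of the arrays bear on every comparison. Median intensity was 180.46 to 223.26 per array. The control probe set for 25S ribosomal RNA differed between the groups: its median intensity was 891.8 in WT and 6296.2 in *sdg8-5*, 6856 in darkness and 503.33 in light, and 5051.9 without and 1235.3 with sucrose. The hybridization control bioC split the arrays into 12 with a lower and 12 with a higher signal. All arrays of replicate 1 were in the lower set and all of replicate 3 in the higher, while in replicate 2 the 4 WT arrays were in the lower and the 4 *sdg8-5* arrays in the higher set, so that within replicate 2 genotype and bioC cannot be told apart. Because the annotation lists no probe set under SDG8, the loss of its transcript in the mutant was not examined. The 5 measured leaf markers of 16 listed had a summed intensity of 18593 to 46149 in WT (median 28082) and 13111 to 35142 in *sdg8-5* (median 23703). Of the root markers, 3 of 9 were measured, with sums of 4190.2 to 8801.1 in WT and 3484.1 to 8580.8 in *sdg8-5*, and nearly all of this came from PYK10, a beta-glucosidase of roots and hypocotyls, at 3405.5 to 8567.9. The 2 measured flower markers of 7 listed summed to 8.57 to 79.2 in WT and 12.7 to 48.3 in *sdg8-5*. In such bulk samples, fewer cells of a type and less RNA per cell cannot be told apart.

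Most of the family was detectable in these shoots, and 29 of the 45 genes were called for genotype, sucrose or light. The share of all genes called for at least 1 of these factors was not computed, so this count is not set against the array. A mean of at least 40 was found in all 8 conditions for 29 genes and in some of them for 9. For 7 genes the mean stayed under 40 in all conditions: UGT71B8, UGT72E3, UGT73C1, UGT76E1, UGT78D3, UGT84B1 and UGT84B2. Of the 29 genes that were called, 19 were called for 1 of the 3 factors, 7 for a pair of them and 3 for all (UGT74D1, UGT85A4 and UGT88A1). The 16 genes without a call were UGT71B5, UGT71B8, UGT71C3, UGT72E3, UGT73C2, UGT73C7, UGT73D1, UGT74F1, UGT76E1, UGT76E12, UGT78D3, UGT84B1, UGT84B2, UGT85A2, UGT85A7 and UGT87A2. Among these, UGT87A2, known for a role in flowering time, ranged only from 1732.4 to 3175.7 over the 24 arrays.

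**Figure D1:**
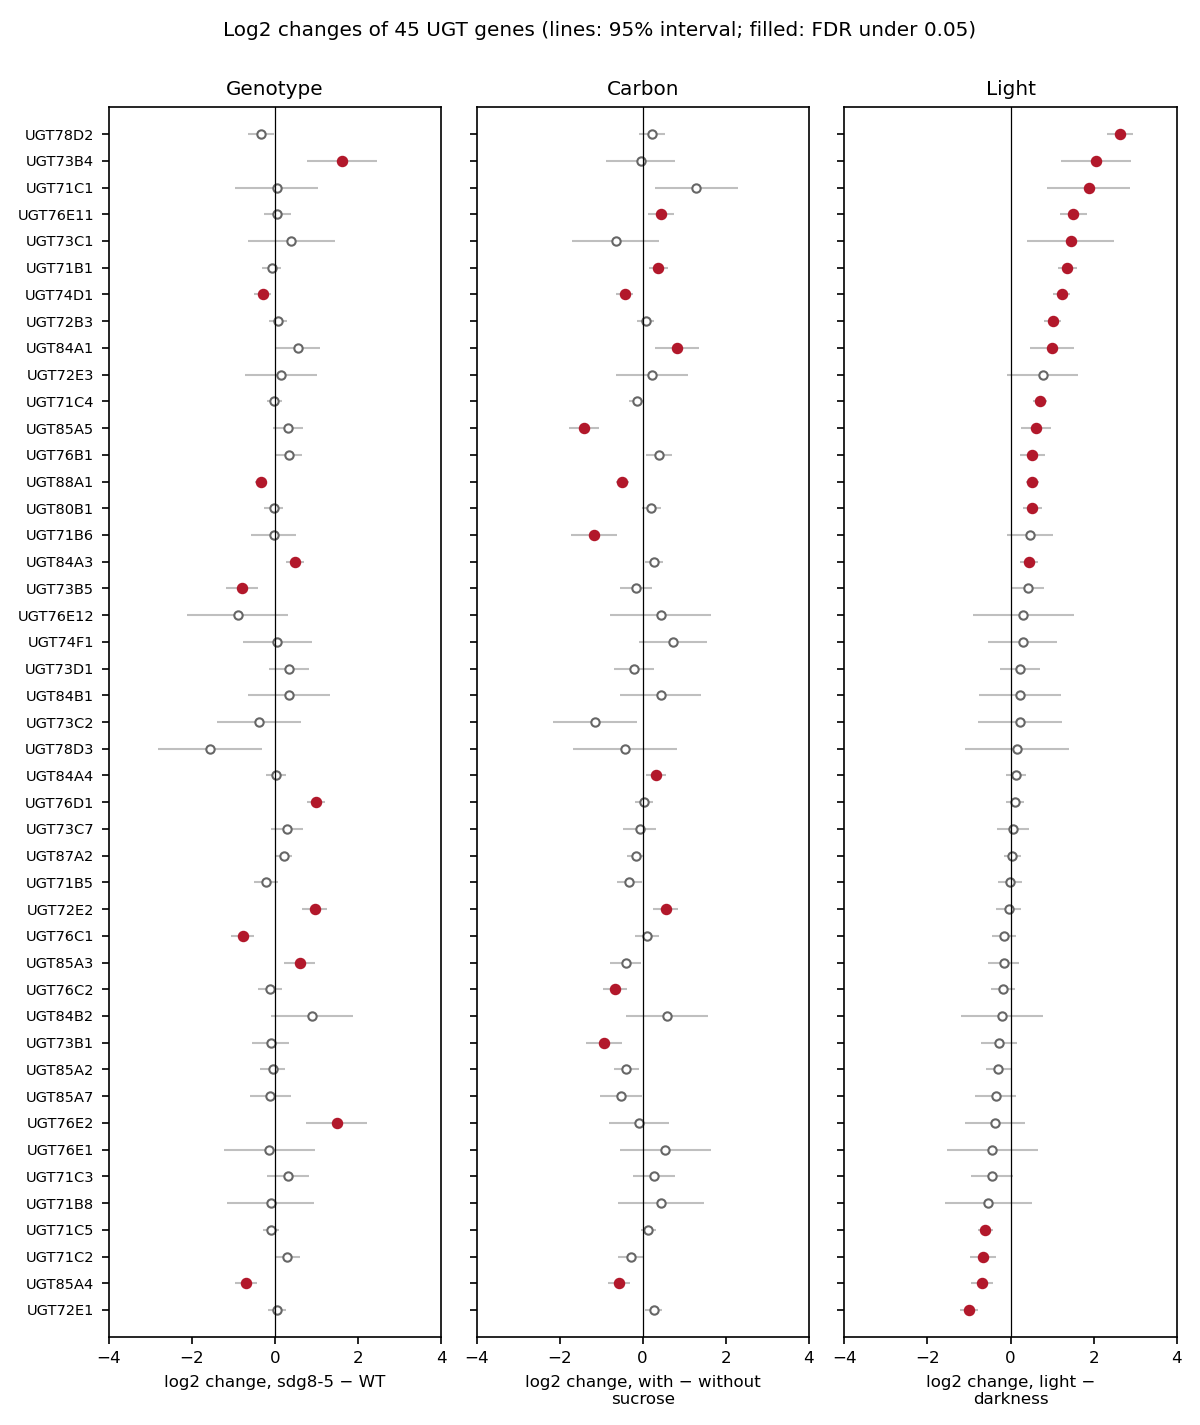
Log2 change of each of the 45 UGT genes between genotypes (*sdg8-5* minus WT), sucrose treatments and light treatments, sorted by the light change, with 95% intervals as lines and filled points for FDR below 0.05. The light panel holds 15 filled points above 0 and 4 below, from UGT78D2 at 2.64 to UGT72E1 at -1.001.

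Light was the factor that moved the largest number of UGT genes. In light, 15 of the 45 (33.3%) were higher and 4 (8.89%) lower than in darkness. Of all 12432 genes, 17.3% were higher and 16.4% lower, so the share of members that rose was larger and the share that fell smaller than over the array. The median log2 change was 0.22 over the members and 0.01 over all genes, and the median size without regard to sign was 0.44 and 0.29. These shares describe the family and were not tested as a set. Of the 19 genes called for light, 15 had a mean of at least 40 in all 8 conditions.

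The flavonoid O-glucosyltransferase UGT78D2 (AT5G17050), which acts on flavonols and anthocyanidins, had the largest light change of the family. Its intensity in WT was 160, 232 and 192 in -C-L, 285, 172 and 196 in +C-L, 1182, 1163 and 1164 in -C+L, and 2185, 1036 and 1102 in +C+L. In *sdg8-5* the corresponding values were 208, 121 and 104, then 235, 132 and 212, then 805, 1149 and 973, and 958, 934 and 1234. All 12 arrays of light were above all 12 of darkness, and 1 WT array with sucrose and light was far above its replicates. The log2 change was 2.64 ± 0.15, or 6.22-fold (FDR = 1.66e-10). It was 2.64 in WT and 2.63 in *sdg8-5*.

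Non-overlapping ranges in light and darkness were also seen in UGT71B1 (AT3G21750), UGT76E11 (AT3G46670), UGT72B3 (AT1G01420) and UGT71C4 (AT1G07250). UGT71B1 had 198 to 465 (median 293) in darkness and 579 to 1003 (median 748) in light, a log2 change of 1.37 ± 0.11 (FDR = 1.09e-08). UGT76E11 went from 49.3 to 135 (median 81.7) in darkness to 163 to 311 (median 231) in light, a change of 1.51 ± 0.15 (FDR = 2.62e-07). In both genes the light arrays lay apart from the dark ones in either genotype and with either sucrose treatment. UGT72B3 had 172 to 312 in darkness and 324 to 568 in light (1.01 ± 0.10, FDR = 2.05e-07), and UGT71C4 had 487 to 803 and 809 to 1175 (0.71 ± 0.08, FDR = 1.40e-06).

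UGT74D1 (AT2G31750), which glucosylates auxins and oxidized auxin, was 310.65 to 850 (median 487) in darkness and 810 to 1422 (median 1099) in light. A single dark array, WT -C-L replicate 1 at 850, reached into the light range. In each combination of genotype and sucrose the 3 light arrays were all above the 3 dark arrays, and the log2 change was 1.24 ± 0.10 (FDR = 8.99e-09).

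Several genes of low intensity rose with large and less precise changes. UGT73B4 (AT2G15490), known for its part in detoxifying the explosive TNT, was 5.38 to 73.1 (median 11.04) in darkness and 17.1 to 148.2 (median 76.8) in light, with a log2 change of 2.06 ± 0.40 (FDR = 0.000407). UGT71C1 (AT2G29750), active on hydroxycinnamates and flavonoids in vitro, was 3.32 to 89.6 (median 14.4) and 7.10 to 147.4 (median 62.8), a change of 1.89 ± 0.48 (FDR = 0.00384). UGT73C1 (AT2G36750), which acts on cytokinins and on TNT derivatives, reached 40 on only 3 arrays, and its change of 1.44 ± 0.50 (FDR = 0.0286) was no longer called without any 1 of 5 single arrays. The 2 groups overlapped in each of these genes. UGT84A1 (AT4G15480), which makes glucose esters of hydroxycinnamates, rose by 0.99 ± 0.25 (FDR = 0.00401) and reached 40 on 2 arrays, both *sdg8-5* +C+L.

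Smaller rises in light were found in UGT85A5 (0.61 ± 0.17, FDR = 0.00836), in UGT88A1 (0.53 ± 0.07, FDR = 9.52e-06), in the sterol glucosyltransferase UGT80B1 (0.52 ± 0.11, FDR = 0.000798) and in UGT84A3 (0.45 ± 0.10, FDR = 0.00202), whose product makes sinapate and other hydroxycinnamate esters. For UGT85A5 the means without sucrose were 149 in darkness and 144 in light in WT, and 194 and 186 in *sdg8-5*. With sucrose they were 42.1 and 85.5 in WT, and 44.1 and 112 in *sdg8-5*. The difference between these light responses was not called (FDR = 0.110). UGT76B1, the last of the 15, is described with its response to both treatments. With the 8 arrays of a replicate number left out, UGT71C1 and UGT80B1 were not called without number 1 (FDR = 0.165 and 0.065), UGT85A5 without number 2 (FDR = 0.191), UGT84A3 without 1 or 2 (FDR = 0.0625 to 0.124), and UGT84A1 without 1 or 3 (FDR = 0.0554 to 0.0676). UGT73C1 was not called without number 2 (1.42, FDR = 0.107) or 3 (0.97, FDR = 0.306), with a pseudocount of 16 (0.51, FDR = 0.0649), or by ANOVA on linear values (FDR = 0.212).

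The 4 genes that fell in light were led by UGT72E1 (AT3G50740), which glucosylates coniferyl aldehyde, a precursor of lignin. It ranged from 3585 to 6694 (median 5083) in darkness and from 1790.3 to 3389 (median 2429) in light, without overlap, a log2 change of -1.001 ± 0.10 (FDR = 1.86e-07). UGT71C5 (AT1G07240), a glucosyltransferase of abscisic acid (ABA), was 584 to 923 (median 716) in darkness and 383 to 574 (median 482) in light, again without overlap (-0.61 ± 0.09, FDR = 2.03e-05). UGT85A4 (AT1G78270) changed by -0.69 ± 0.13 (FDR = 0.000234) and UGT71C2 (AT2G29740) by -0.66 ± 0.15 (FDR = 0.00131), with overlapping ranges.

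**Figure D2:**
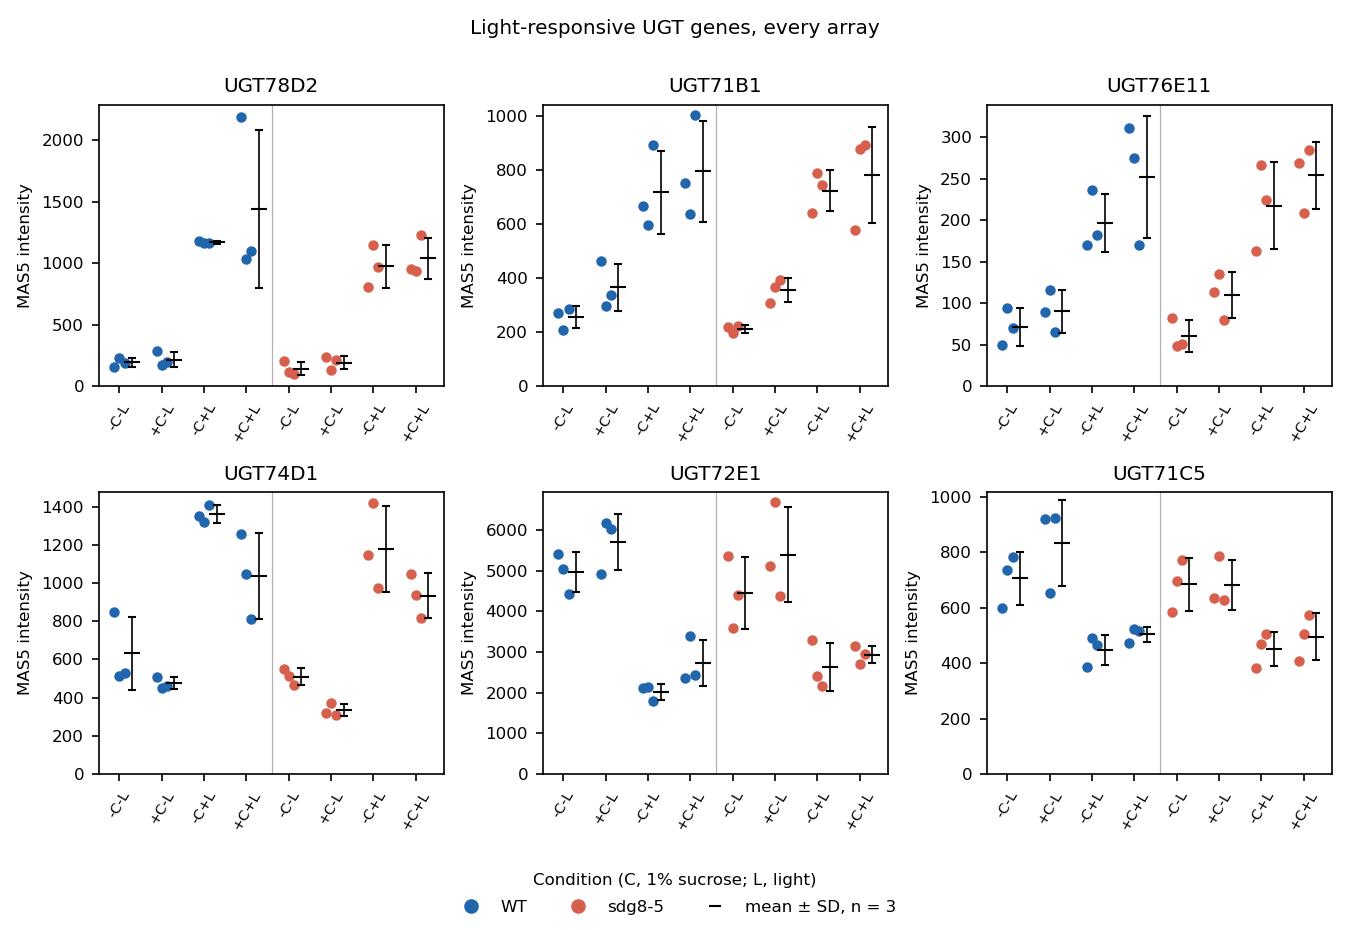
MAS5 intensity of 6 light-responsive UGT genes on every array by condition (points, WT in blue and *sdg8-5* in red), with mean ± SD of 3 arrays in black. UGT78D2, UGT71B1, UGT76E11 and UGT74D1 are higher in the +L conditions of both genotypes, and UGT72E1 and UGT71C5 are lower.

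The 25S signal was lower in light than in darkness. In a model that already holds the 8 condition means, the slope on it rests on differences between replicates of a condition. Among these, *sdg8-5* -C+L had 8044.2 in replicate 2, against 1036.6 and 1091.5 in replicates 1 and 3. Because the signal also differed between the groups, such a fit can widen the errors, and a lost call does not by itself show a smaller change. The same applies to sucrose and genotype. With that signal as a covariate, 6 members were called higher and 1 lower in light. The 7 were UGT71B1, UGT71C4, UGT72B3, UGT74D1, UGT76E11, UGT78D2 and UGT72E1, and UGT78D2 then changed by 2.82. Of the genes no longer called, UGT71C2 moved from -0.66 to -0.06 (FDR = 0.961) and UGT76B1 from 0.53 to 0.04 (FDR = 0.978). Others had larger changes than before, which were 3.17 in UGT73B4 (FDR = 0.0755), 3.44 in UGT73C1 (FDR = 0.109) and -0.75 in UGT71C5 (FDR = 0.0643).

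Sucrose moved fewer members than light. With sucrose, 5 of the 45 (11.1%) were higher and 7 (15.6%) lower, against 12.3% and 8.19% of all genes. The median log2 change was 0.04 over the members and 0.05 over all genes, but the median size was 0.40 against 0.22. Of the 12 genes called, 10 had a mean of at least 40 in all conditions. In 7 of them light was called as well: UGT71B1, UGT76E11 and UGT84A1 were higher with sucrose and in light, UGT74D1, UGT85A5 and UGT88A1 were lower with sucrose and higher in light, and UGT85A4 was lower in both. No member was higher with sucrose and lower in light. The shares of all genes with such combinations were not computed, so these counts describe the members only.

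UGT85A5 (AT1G22370) had the largest called fall. Its intensity in WT was 150, 129 and 170 in -C-L, 45.1, 18.5 and 62.7 in +C-L, 148, 139 and 146 in -C+L, and 71.1, 91.8 and 93.6 in +C+L. In *sdg8-5* it was 226, 181 and 177, then 63.8, 37.6 and 31.0, then 175, 241 and 144, and 111, 138 and 87.5. In every combination of genotype and light the 3 arrays with sucrose were below the 3 without. The log2 change was -1.42 ± 0.17 (FDR = 8.81e-06), which was -2.09 ± 0.24 in darkness (FDR = 9.73e-06) and -0.75 ± 0.24 in light (FDR = 0.0921). The difference between these responses, 1.35 ± 0.34, did not pass the threshold (FDR = 0.110). It was -1.38 in WT and -1.46 in *sdg8-5*.

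Of the 3 measured genes for each of ABA, cytokinin and auxin, 1 was called lower with sucrose, against 8.19% of all genes. The others were not called, and the median log2 change was 0.13 for ABA, -0.65 for cytokinin and 0.43 for auxin. UGT71B6 (AT3G21780), an ABA glucosyltransferase, was 48.4 to 147.2 (median 102) without and 12.96 to 81.4 (median 50.5) with sucrose, a log2 change of -1.18 ± 0.26 (FDR = 0.00289). UGT76C2 (AT5G05860), which N-glucosylates cytokinins, was 193.9 to 440.2 (median 344) without and 124 to 289 (median 204) with sucrose (-0.67 ± 0.14, FDR = 0.00161). Ranges overlapped in both, and in either gene the arrays were separate in 3 of the 4 combinations of genotype and light. The auxin enzyme UGT74D1 fell by 0.43 ± 0.10 on the log2 scale (FDR = 0.00300).

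UGT88A1 (AT3G16520) fell from 2253 to 4417 (median 3103) without sucrose to 1238 to 3333 (median 2268) with it. The change was small but separate in all 4 combinations (-0.49 ± 0.07, FDR = 6.51e-05). The remaining falls were -0.93 ± 0.21 in UGT73B1 (AT4G34138, FDR = 0.00312) and -0.57 ± 0.13 in UGT85A4 (FDR = 0.00290). Without replicate 2, UGT73B1, UGT74D1 and UGT85A4 were not called (FDR = 0.0726 to 0.129), nor was UGT76C2 without replicate 2 or 3 (FDR = 0.0697 to 0.089).

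Of the 5 rises with sucrose, 3 were in enzymes of hydroxycinnamates and monolignols, of which 6 were measured. Over all genes, 12.3% were higher with sucrose, and the enzymes of this role were not tested as a set. UGT72E2 (AT5G66690), which glucosylates coniferyl and sinapyl alcohol, was 177 to 458 (median 233) without and 174 to 775 (median 392) with sucrose (0.56 ± 0.14, FDR = 0.00759). UGT84A1 had 3.03 to 15.4 (median 5.95) and 4.62 to 57.1 (median 12.4), a change of 0.83 ± 0.25 (FDR = 0.0225), and its neighbor UGT84A4 rose by 0.33 ± 0.11 (FDR = 0.0457). The other rises were 0.44 ± 0.15 in UGT76E11 (FDR = 0.0447) and 0.37 ± 0.11 in UGT71B1 (FDR = 0.0184). Each of the 5 lost its call whichever replicate number was left out, and UGT84A4 and UGT76E11 lost it in 20 and 19 of all 27 fits that left out arrays. UGT71C1 had a larger value, 1.28 ± 0.48, which was not called (FDR = 0.0614).

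**Figure D3:**
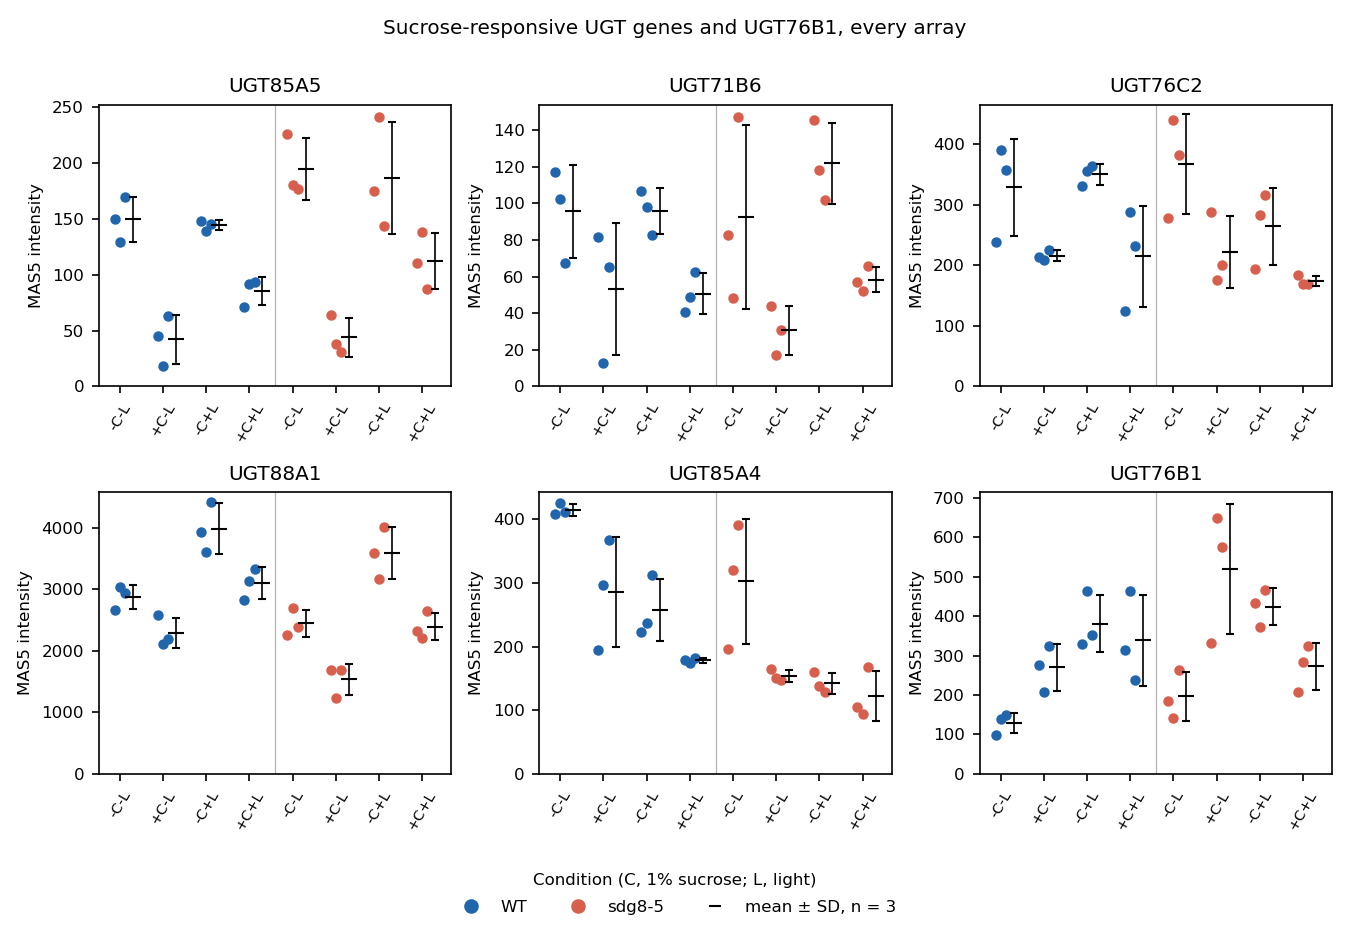
MAS5 intensity on every array by condition for 5 UGT genes that were lower with sucrose and for UGT76B1, with mean ± SD of 3 arrays in black. UGT85A5 falls from 149 to 42.1 in WT and from 194 to 44.1 in *sdg8-5* with sucrose in darkness, and UGT76B1 is lowest in -C-L in both genotypes.

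The 25S signal was also lower with sucrose. With it as a covariate, no member was called higher and 4 were called lower, which were UGT71B6, UGT76C2, UGT85A5 and UGT88A1. Centring each array on its median, which moved the median of all probe sets from 0.05 to -0.03, gave 2 higher and 8 lower members.

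Whether the responses to sucrose and light added up on the log2 scale was tested as the carbon by light interaction. It was called for 1 of the 45 members (2.22%), against 0.241% of all genes. An unadjusted limma p below 0.05 was found for 6 members. The share of all genes at that level was not computed, so this count is not set against the array. The gene called was UGT76B1 (AT3G11340), whose product glucosylates isoleucic acid, salicylate and N-hydroxypipecolate, compounds of plant immunity. In WT its intensity was 99.9, 140 and 149 in -C-L, 277, 208 and 325 in +C-L, 329, 463 and 352 in -C+L, and 315, 464 and 238 in +C+L. In *sdg8-5* it was 184, 143 and 263, then 333, 650 and 577, then 435, 372 and 466, and 209, 284 and 325. In darkness without sucrose the arrays were the lowest of their genotype, apart from 1 array of *sdg8-5* +C+L that lay inside their range.

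Sucrose raised UGT76B1 by 1.22 ± 0.21 on the log2 scale in darkness (FDR = 0.000402), while its log2 change in light was -0.43 ± 0.21 (FDR = 0.301). Likewise, light raised it by 1.36 ± 0.21 without sucrose (FDR = 6.26e-05), and the change with sucrose was -0.30 ± 0.21 (FDR = 0.376). The interaction was -1.66 ± 0.30, with a 95% interval of -2.28 to -1.03 (FDR = 0.0207). With only 16 arrays left after removal of any replicate number it was -1.70 to -1.62 and not called (FDR = 0.197 to 0.272), and with the 25S covariate it was -1.59 (FDR = 0.0308). The change in light averaged over the sucrose treatments, 0.53 ± 0.15 (FDR = 0.00844), was not called without replicate 1 or 2 (FDR = 0.0826 to 0.107).

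Of the members that did not pass, UGT84A1 came next, with an interaction of 2.05 ± 0.50 (FDR = 0.0963). Its mean intensity was 16.4 in WT +C+L and 40.2 in *sdg8-5* +C+L, and 5.05 to 10.4 in the other 6 conditions. The arrays of +C+L were 11.98 to 57.1 and those of all other conditions 3.03 to 15.4, so that the ranges overlapped only slightly, at intensities mostly below 40.

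Between genotypes, a small group of members differed in each direction. In *sdg8-5*, 6 of the 45 (13.3%) were higher and 5 (11.1%) lower than in WT, against 8.49% and 10.1% of all genes. The median log2 change was 0.04 over the members and 0.01 over all genes, and the median size was 0.30 and 0.21. Of the 11 genes, 9 had a mean of at least 40 in all conditions, 5 were called for genotype only, and 5 were called for light too. The shares of all genes with these combinations of calls were not computed.

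UGT76D1 (AT2G26480), which glucosylates dihydroxybenzoates that arise from salicylate, had the lowest FDR of the genotype changes. In WT it was 66.3, 105 and 62.8 in -C-L, 116, 155 and 105 in +C-L, 96.6, 104 and 114 in -C+L, and 106, 82.3 and 83.3 in +C+L. In *sdg8-5* it was 174, 205 and 239, then 181, 175 and 120.03, then 199.5, 201 and 214, and 185, 226 and 227. The mutant arrays lay above the WT arrays in 3 treatments and overlapped with them in +C-L through a single array. The log2 change was 0.99 ± 0.10, or 1.99-fold (FDR = 2.18e-06). Within single treatments it was 1.43 in -C-L (FDR = 0.000483), 0.97 in -C+L (FDR = 0.0178) and 1.23 in +C+L (FDR = 0.00276), and 0.33 in +C-L (FDR = 0.428).

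The monolignol enzyme UGT72E2 was 174 to 343 (median 219) in WT and 201 to 775 (median 453) in *sdg8-5*, with separate arrays in 3 of 4 treatments, a change of 0.96 ± 0.14 (FDR = 0.000102). The largest of its changes in single treatments was 1.53 ± 0.28 in +C+L (FDR = 0.00617). Another phenylpropanoid enzyme, UGT84A3 (AT4G15490), was 167 to 396 (median 241) and 197 to 504 (median 336), a change of 0.48 ± 0.10 (FDR = 0.00286). The other members of this role had log2 changes of 0.05 (UGT72E1), 0.15 (UGT72E3), 0.55 (UGT84A1) and 0.03 (UGT84A4) and were not called.

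UGT73B4 had 5.38 to 109 (median 15.0) in WT and 5.87 to 148.2 (median 64.5) in *sdg8-5*. In WT in darkness all 6 arrays were between 5.38 and 12.9, whereas 5 of the 6 mutant arrays were between 14.8 and 73.1. The log2 change was 1.62 ± 0.40 (FDR = 0.00727). UGT76E2 (AT5G59590), which acts on hydroxylated jasmonate, was 7.77 to 82.9 (median 43.8) in WT and 50.1 to 143 (median 94.0) in *sdg8-5*, a change of 1.49 ± 0.35 (FDR = 0.00491). UGT85A3 (AT1G22380) was higher by 0.60 ± 0.18 (FDR = 0.0236).

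Among the genes lower in *sdg8-5*, UGT73B5 (AT2G15480), which takes part in the response to pathogens and oxidative stress, was 113 to 186 (median 135) in WT and 40.7 to 168 (median 71.6) in the mutant (-0.80 ± 0.18, FDR = 0.00486). UGT76C1 (AT5G05870), a cytokinin N-glucosyltransferase, was 194 to 317 (median 275) and 110 to 253 (median 141), a change of -0.78 ± 0.14 (FDR = 0.000487). In UGT85A4 the WT arrays were 408 to 425 in -C-L, 194 to 367 in +C-L, 222 to 313 in -C+L and 175 to 182 in +C+L. The mutant arrays were 197 to 391, 147 to 165, 129 to 160 and 94.5 to 168 in the same order, below those of WT in all 4 treatments (-0.70 ± 0.13, FDR = 0.000660). UGT88A1 was lower by a log2 change of -0.34 ± 0.07 (FDR = 0.00243) and UGT74D1 by -0.29 ± 0.10 (FDR = 0.0435).

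**Figure D4:**
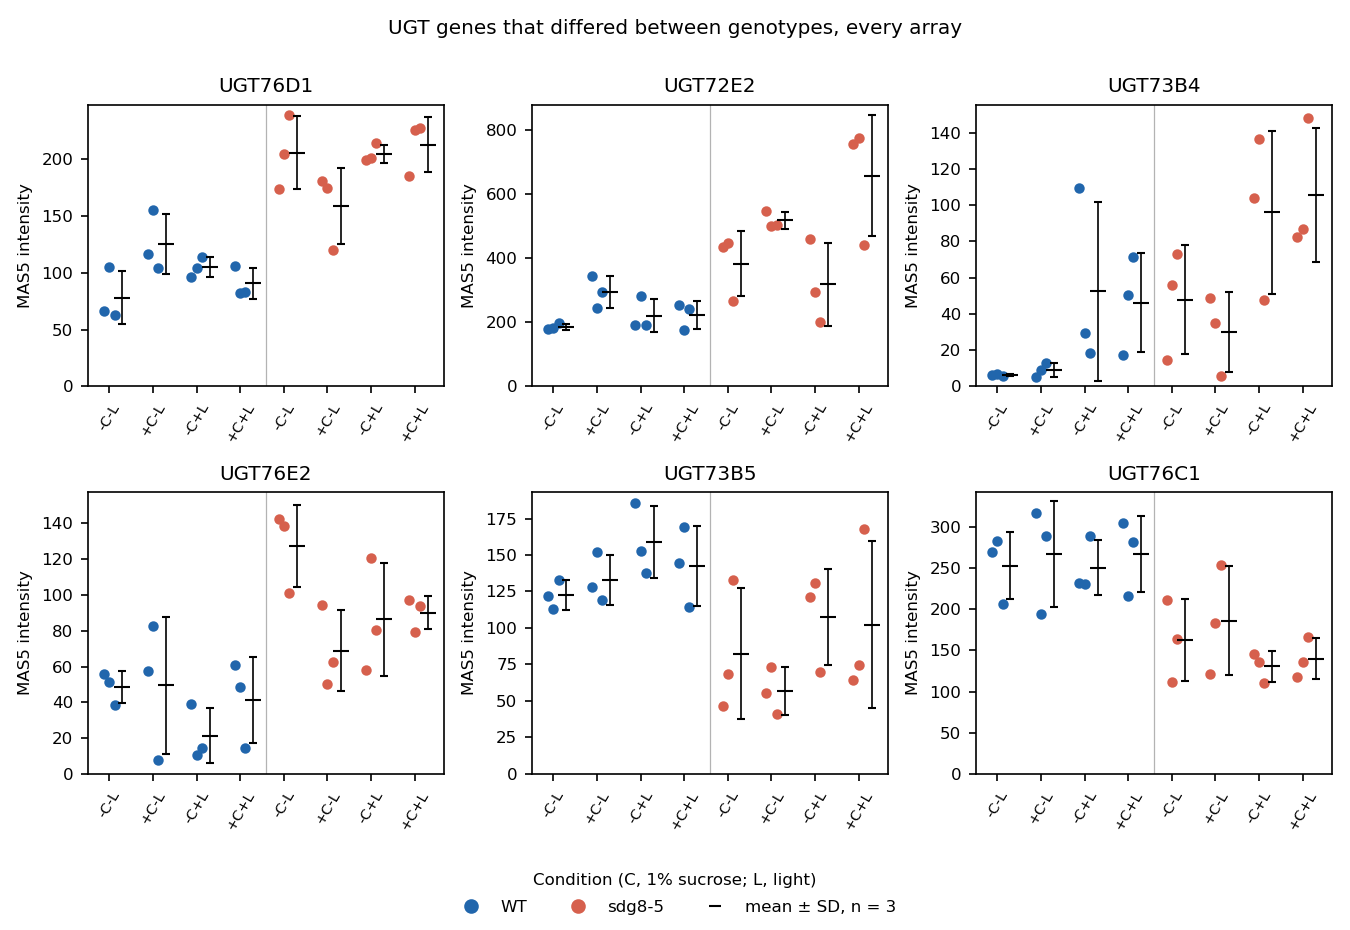
MAS5 intensity on every array by condition for 6 UGT genes that differed between WT (blue) and *sdg8-5* (red), with mean ± SD of 3 arrays in black. UGT76D1, UGT72E2, UGT73B4 and UGT76E2 are higher in the mutant, with means of 158 to 213 against 78.1 to 125 for UGT76D1, and UGT73B5 and UGT76C1 are lower.

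The arrays of replicate 2, in which bioC followed genotype, affected the calls more than the sizes of these changes. Without them, UGT73B4, UGT73B5, UGT74D1, UGT76E2, UGT84A3, UGT85A3, UGT85A4 and UGT88A1 were not called (FDR = 0.0644 to 0.207), and 2 genes were called higher and 1 lower. The log2 changes were then 1.45 in UGT73B4, 1.61 in UGT76E2, 0.63 in UGT85A3, 0.45 in UGT84A3, -0.795 in UGT73B5, -0.66 in UGT85A4, -0.39 in UGT74D1 and -0.30 in UGT88A1, with 16 arrays in the fit. UGT73B5 was not called without replicate 1 either, and UGT85A3 and UGT74D1 were not without any replicate number. UGT74D1 lost its genotype call in 20 of 27 fits that left out arrays and under 5 of 12 other settings. With the bioC set as a block, the log2 change was -0.24 in UGT74D1 (FDR = 0.106) and 0.56 in UGT85A3 (FDR = 0.0531), neither of them called. Within the lower and the higher bioC set, UGT76D1 differed between genotypes by 0.87 and 1.15 and UGT72E2 by 1.25 and 0.80. The lower set holds only 4 arrays of *sdg8-5* and the higher only 4 of WT, 1 per treatment, so these values have no error. With the 25S covariate, 3 were called higher (UGT72E2, UGT76D1 and UGT84A3) and 1 lower (UGT85A4). UGT72E2 and UGT76D1 were called in all 27 fits that left out arrays and under all 12 other settings.

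The responses to sucrose and light were not found to differ between genotypes. For genotype by light, no member passed an FDR of 0.15, against 0.0161% of all genes. An unadjusted limma p below 0.05 was found for 3 members, and the share of all genes at that level was not computed. The lowest p belonged to UGT74F1 (AT2G43840), which makes the glucoside of salicylate, with an interaction of 2.17 ± 0.79 (95% interval 0.51 to 3.83, FDR = 0.642). That gene reached 40 on only 6 arrays. For genotype by carbon, no gene of the array passed (0%), and no member had an unadjusted p below 0.05. UGT76B1 had a genotype by light value of -0.80, with an interval of -1.43 to -0.18 (FDR = 0.642). For UGT78D2 the difference between the light changes of 2.64 and 2.63 had an interval of -0.64 to 0.63.

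The members were also grouped by what their enzymes are known to act on. The roles were taken from lists that hold 25 of the members, and 3 other glycosyltransferases of those lists are on the array under other symbols. For ABA, 3 of 4 listed genes were measured: UGT71B6 fell with sucrose, UGT71C5 fell in light, and UGT71B8 was not called at an intensity of at most 75.7. For cytokinin, 3 of 5 were measured, and UGT76C1 fell in *sdg8-5*, UGT76C2 with sucrose, while UGT73C1 rose in light. For auxin, 3 of 7 were measured, and UGT74D1 was called for all factors while UGT84B1 and UGT84B2 were called for none. For jasmonate, UGT76E2 was higher in *sdg8-5* and UGT76E1 reached 40 on 1 array.

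For salicylate and related defense signals, 2 of 3 were measured, and UGT76B1 rose in light while UGT74F1 was not called. For flavonoids, 3 of 7 were measured, and UGT78D2 rose in light, with UGT78D3, an arabinosyltransferase of flavonols, and UF3GT, which is UGT79B1, not called. UGT78D3 had a genotype value of -1.57 ± 0.60 (FDR = 0.0743) and reached 40 on 2 arrays. For hydroxycinnamates and monolignols, 6 of 7 were measured: 2 were higher in *sdg8-5* and none lower, 3 were higher with sucrose and none lower, and 2 were higher and 1 lower in light. Over all genes, 8.49% were higher and 10.1% lower in *sdg8-5*, and 12.3% were higher and 8.19% lower with sucrose. In light, 17.3% of all genes were higher and 16.4% lower. In the group of xenobiotic and stress-responsive enzymes, 4 of 5 were measured and 3 rose in light (17.3% of all genes), UGT73B4, UGT71C1 and GT72B1, which is UGT72B1. GT72B1 changed by 0.64 in light, and was also higher in *sdg8-5* by 0.40 and with sucrose by 0.39. Of the sterol enzymes, UGT80B1 rose in light and SGT, which is UGT80A2, fell by 0.45 (FDR = 0.00186).

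Genes around the family were matched less completely. A listed gene that was not matched by name may still have a probe set on the array, since 8794 probe sets list no gene. Of 30 listed genes that supply UDP-sugars, 1 was measured, USP, a UDP-sugar pyrophosphorylase, which rose with sucrose by 0.30 ± 0.06 (FDR = 0.00118) and in light by 0.49 ± 0.06 (FDR = 2.77e-06). Of 26 listed genes of phenylpropanoid and flavonoid synthesis, 2 were measured, the dihydroflavonol reductase DFR and the anthocyanidin reductase BAN, and neither was called for any factor. Beta-glucosidases, which remove glucose from such conjugates, were covered by 19 BGLU genes. In *sdg8-5*, 2 of them were higher and 4 lower, against 8.49% and 10.1% of all genes. The lower ones were BGLU31 (-1.68 ± 0.24, FDR = 6.76e-05), BGLU33 (-1.11 ± 0.14, FDR = 2.5e-05), BGLU25 (-0.52 ± 0.15, FDR = 0.0170) and BGLU15 (-0.35 ± 0.12, FDR = 0.0454). The higher ones were BGLU45 (0.62 ± 0.20, FDR = 0.0346) and BGLU46 (0.99 ± 0.20, FDR = 0.00181), enzymes known for hydrolysing monolignol glucosides, the products of UGT72E2. BGLU46 had a mean of 254.93 in WT and 496.96 in *sdg8-5*. With sucrose, 2 of the 19 were higher and 2 lower, against 12.3% and 8.19% of all genes. BGLU46 was among the lower ones (-0.66 ± 0.20, FDR = 0.0229), and BGLU45 was not called (-0.51 ± 0.20, FDR = 0.0759). In light, 6 of the 19 were higher and 1 lower, against 17.3% and 16.4% of all genes.

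Of the 45 members, 28 lie beside another member on a chromosome, in 16 pairs with at most 2 genes between them by the gene order of TAIR10.1. Whether the genes of a pair changed unequally was tested for each factor, 48 comparisons, with an exact two-sided permutation test of the labels within the other factors (160000 arrangements) and adjustment over the 48. In 15 comparisons, which belong to 10 pairs, the adjusted p was below 0.05. In 3 of them both genes were called, in opposite directions. Pairs of other genes were not tested, so these counts do not show whether neighboring UGT genes differ more often than other genes.

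The first was UGT73B5 and UGT73B4, neighbors with no gene between them. UGT73B5 had a log2 change of -0.80 and UGT73B4 of 1.62 between genotypes, a difference of -2.42 (exact permutation, adjusted p = 0.0003, and an unadjusted p that was the smallest possible, 1.25e-05). The pair also differed in light, by -1.64 (adjusted p = 0.0012 by exact permutation), where UGT73B5 was not called. In the second pair, UGT71C5 fell in light and the adjacent UGT71C4 rose, with a difference of -1.32 (exact permutation, adjusted p = 0.0003). UGT71C3, on the other side of UGT71C4 and known for methyl salicylate, had a light value of -0.44 (FDR = 0.179), and it differed from UGT71C4 by 1.15 (exact permutation, adjusted p = 0.00288).

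The third was UGT71C2 and UGT71C1, whose light changes of -0.66 and 1.89 differed by -2.55 (exact permutation, adjusted p = 0.00290). Within the UGT85A cluster, UGT85A5, with a sucrose change of -1.42, differed from UGT85A2 at -0.40 (FDR = 0.0523, exact permutation adjusted p = 0.00624) and from UGT85A3 at -0.41 (FDR = 0.113, exact permutation adjusted p = 0.00194), neither of which was called. The cytokinin pair UGT76C2 and UGT76C1 differed between genotypes by 0.65 (exact permutation, adjusted p = 0.0291) and with sucrose by -0.77 (adjusted p = 0.0147 by exact permutation): 1 gene responded to sucrose and the other to genotype. UGT84A3 and UGT84A4 differed between genotypes by 0.45 (exact permutation, adjusted p = 0.0257). Of the 15 comparisons, 2 set UGT76E2 against UGT76E1 and UGT78D2 against UGT78D3, and since UGT76E1 and UGT78D3 reached 40 on only 1 and 2 of the 24 arrays, a change in them could hardly be seen and no difference is given. UGT73B4 and UGT71C1 reached 40 on 12 and 13 arrays, so that the sizes of their changes are uncertain. None of the 45 probe sets carries the suffix that marks probes matching several transcripts, but cross-hybridization between close copies was not tested.

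**Figure D5:**
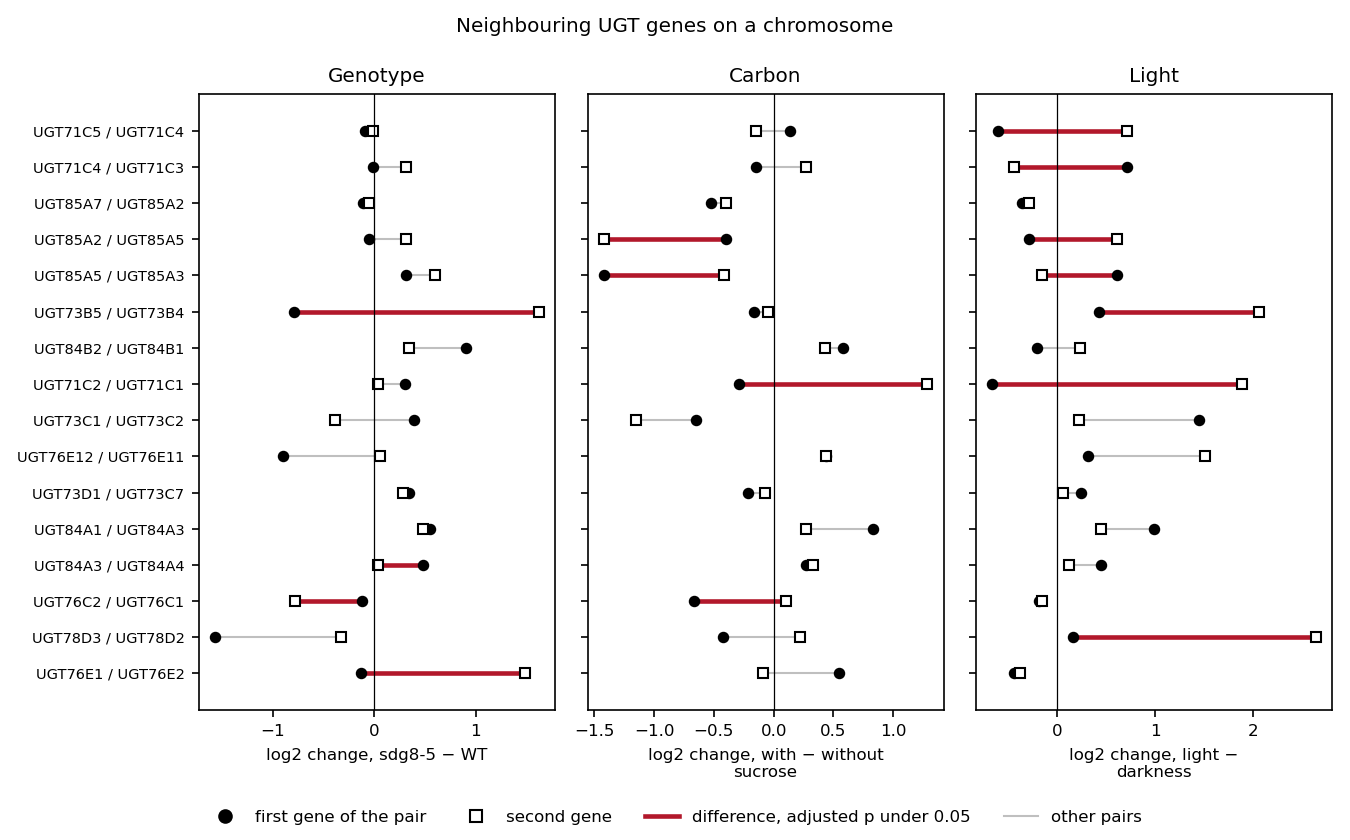
Log2 changes of both genes in each of 16 neighboring pairs, by factor (filled circle for the first gene and open square for the second). Thick red lines mark the 15 comparisons with an adjusted p below 0.05, among them UGT73B5 and UGT73B4 between genotypes, at -0.80 and 1.62, and UGT71C5 and UGT71C4 in light, at -0.61 and 0.71.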

How the data were processed

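The authors extracted RNA from shoots, hybridized it to ATH1 arrays and computed MAS5 in R, and the deposited values are linear intensity values scaled to a trimmed mean of 500 on each array. No version or genome build was given in the sources used here. Log2 intensities of the 21552 of 22810 probe sets with at least 40 on at least 1 array entered a linear model of 8 condition means in limma 3.58.1 under R 4.3.3 (lmFit, then eBayes), with 16 residual degrees of freedom. Benjamini-Hochberg adjustment covered all these probe sets, and the fit was tested on simulated data. The genotype interactions used a threshold of 0.15, that of the study's methods for genotype by light. For a gene with several probe sets the brightest was kept. Locus tags and gene order came from RefSeq for TAIR10.1, which matched all 45 members, and no coordinates were used. Named are all called members, for light the 10 largest rises, and the members of the role lists. The members, lists and tests were chosen with earlier results of these data known. The symbol CHI of the phenylpropanoid list belongs to a chitinase here and was left out. P-values of the changes come from limma, which sets each change against the spread between the biological replicates, moderated over all probe sets. Those of the neighboring pairs come from the permutation test. With 3 arrays a condition, the number of replicates limits the precision. Alternatives were filters, a pseudocount of 16, other normalizations, the three-way ANOVA of the methods on log2 and linear values, trend and robust estimation, a replicate block, bioC and 25S terms, and leaving out arrays. Figures were drawn with matplotlib.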

Additional observations from a re-analysis of the deposited data

Results flagged for a closer look

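A response to 1 treatment that differed between the levels of the other was found in UGT76B1. Its sucrose response was 1.22 in darkness and -0.43 in light on the log2 scale, and the test of the difference gave -1.66 (FDR = 0.0207 with limma). The value was -1.48 on the 12 arrays with the lower bioC signal and -1.90 on the 12 with the higher. In each of these sets 1 genotype had only 1 array per condition, and no error was estimated. What gives rise to the difference was not tested.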

How the results depend on the processing

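Of the 43 called changes of single members, 16 were called in all 12 other settings and 12 of these also in the 24 fits without 1 array and the 3 without 1 replicate number; no sign reversed in any. The counts of called members moved by over 1.5 times in these settings. With the 25S rRNA covariate, genotype gave 3 higher and 1 lower, carbon 0 higher and 4 lower, and light 6 higher and 1 lower. In that fit a lost call can come from a wider error as well as from a smaller change. For carbon, the number higher was 8 with a filter of at least 100 on 3 arrays, 3 after quantile normalization (7 lower) and 2 after median centring (8 lower). Over the fits that left out arrays, genotype gave 2 to 7 higher and 1 to 6 lower, carbon 1 to 7 higher and 3 to 9 lower, light 10 to 16 higher and 4 to 5 lower, and carbon by light 0 to 2, and both genotype interactions gave 0. The replicate numbers grouped the arrays weakly. Same-numbered arrays had correlations of deviations of -0.11 to 0.13 (median 0.025), with 6 of 84 pairs over 0.1. Arrays of other numbers had -0.14 to 0.11 (median -0.014), and 16 of 24 arrays correlated best with their own number. The replicate block gave 6 higher and 5 lower for genotype, 5 and 8 for carbon, 15 and 4 for light, 1 for carbon by light and 0 for both genotype interactions. The mean of several probe sets per gene was not run, since each member has 1. Intensities under 40 limit UGT73C1, UGT84A1, UGT78D3 and other dim genes.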
